A study of Mus musculus with 11 samples.

Results

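The clustered protocadherins are cell-surface adhesion proteins encoded side by side on mouse chromosome 18 in an alpha, a beta and a gamma cluster. The members were all rows of the deposited tables whose symbol starts with Pcdha, Pcdhb or Pcdhg followed by a cluster letter or number. This rule matched 58 of 55401 genes, and 1 of them, Pcdhgb8, was left out because GENCODE M21 marks it as a pseudogene. The 57 members were 14 alpha, 22 beta and 21 gamma genes. Positions are from GENCODE M21 on GRCm38, where all 57 lie on the forward strand. The alpha members span bases 36930184 to 37187661 of chromosome 18, the beta members 37264938 to 37524479 and the gamma members 37661793 to 37841873. The symbol Pcdha11 is carried by 2 alpha rows, called the first and the second row here by genomic order.

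RNA with poly(A) tails was sequenced from dissected hippocampus of 11 female mice, each the F1 offspring of a cross between C57BL/6 (BL6) and CAST/EiJ (CAST) parents, with 1 library per mouse. The 5 old mice were 101 to 104 weeks old, 3 of them born to a BL6 mother and 2 to a CAST mother. The 6 young mice were 8 or 9 weeks old, 3 with a BL6 and 3 with a CAST mother. No mouse was labelled as carrying an engineered allele or as treated, and p-values measure the spread between mice.

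Each alpha and gamma gene contributes a variable first exon, with its own promoter, that is spliced to constant exons shared by its whole cluster. Beta genes are single-exon genes and share no constant exon. A single neuron transcribes only a few of the alpha, beta and gamma promoters, chosen largely at random and separately on the maternal and paternal chromosome, whereas the C-type genes at the ends of the alpha and gamma clusters are used more uniformly. The proteins bind copies of themselves on neighbouring membranes, and neurons use the resulting barcode to tell their own branches from those of other cells.

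The libraries held between 111.1 M and 214.8 M counts, and between 39.7 M and 76.9 M were assigned to an allele, of which 50.39% to 51.1% were BL6. Markers of hippocampal neurons were detected in every library, but their amount differed. Summed markers of CA1 pyramidal cells were 528.7 to 792.8 CPM (counts scaled to library size by TMM) in old and 302.7 to 669.8 CPM in young mice. Summed dentate granule markers were 204.6 to 345.7 CPM in old and 110.1 to 412.7 CPM in young mice. Old 3, young 2 and young 6 stood apart by 1180, 3439 and 2169 CPM of striatal markers, against 193.8 to 415.8 CPM in the other 8 libraries. Of the 10 striatal markers 0 were undetected. Summed markers of newborn neurons were 42.91 to 55.19 CPM in old and 62.37 to 100.4 CPM in young mice, without overlap, and those of microglia 157.1 to 181.4 and 94.29 to 154.9 CPM. The part of these differences in the results below was tested only where a value with the marker mean as a term is given.

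The alpha and gamma rows had to be read with their shared exons in view. All 14 alpha rows hold the same 2860 exon bases and all 21 gamma rows the same 2116, and the deposited counts placed the reads of those bases in every row of the cluster. Within a library the lowest alpha row therefore held 95.58% to 98.59% of the count of the median alpha row, and the lowest gamma row 96.92% to 98.65% of the median gamma row. A row of these clusters mostly reported the summed output of its cluster. The reads by which a row exceeds the lowest row of its cluster come from exon bases that not all rows hold. They are called own-exon reads here. They are a lower limit of the reads of those bases, because the lowest row has unknown own-exon reads too. For most rows those bases are almost all the row's own. Pcdhgb1, Pcdhga4, Pcdhgb4 and Pcdhga8 also share some of them with another gamma row, so their own-exon reads can include that row's. In Pcdhga4 only 1570 of 4727 exon bases are in no other gamma row. Beta rows have no exon base in common over the cluster, so a beta count belongs to 1 gene, apart from the overlapping Pcdhb21 and Pcdhb22 and from Pcdhb12, which an antisense gene overlaps. Genes on the reverse strand also overlap own exons of some alpha and gamma rows, among them Pcdhga1, Pcdhgb7, Pcdhga11, Pcdhga12 and Pcdhgc3. Since the strand setting of the counting is not given in the sources used here, their reads cannot be told apart. Forward-strand genes overlap own exons too, which no strand setting separates. Gm38182 holds 902 own bases of Pcdhgc5 and Gm42416 holds 2410 of Pcdha4, so own-exon reads of these rows can include theirs. Pcdha6, Pcdha7 and the second Pcdha11 row are overlapped in this way as well.

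**Figure D1:**
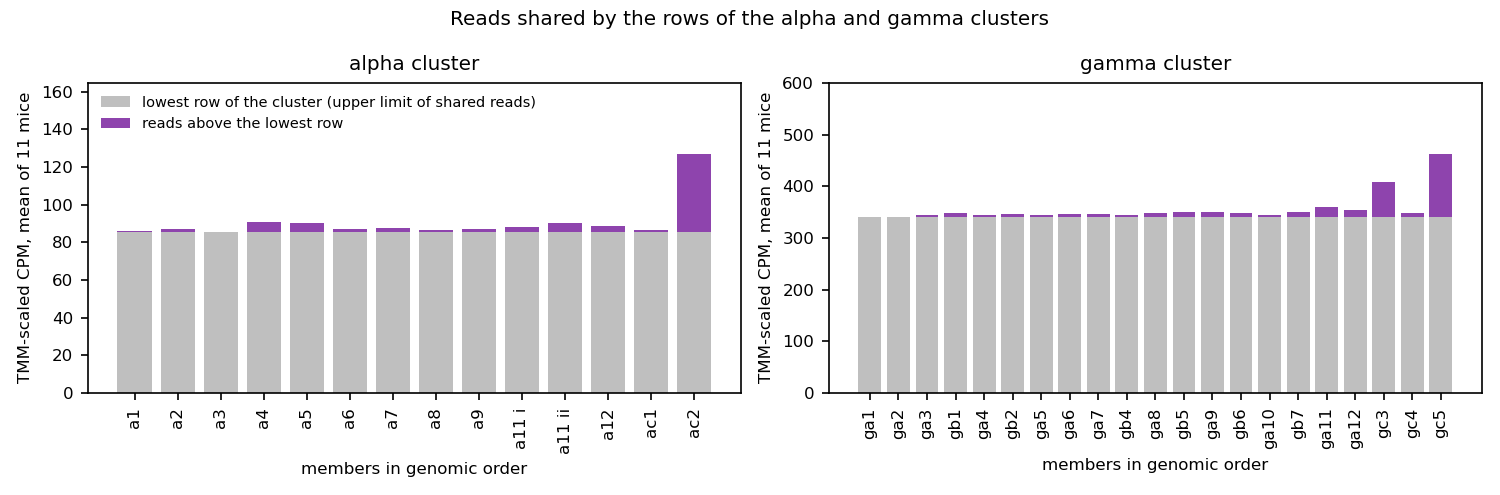
Mean TMM-scaled CPM of every alpha (left) and gamma (right) row over 11 mice, in genomic order. Grey is the level of the lowest row of the cluster, an upper limit of what the rows share, and purple the reads above it, which are largest for Pcdhac2, Pcdhgc3 and Pcdhgc5.

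Levels are first given for the C-type genes, because they carried most of the own-exon reads. Pcdhac2, an alpha C-type gene known from serotonergic axon tiling, had own-exon levels of 45.7, 43.0, 36.4, 42.5 and 51.1 CPM in old mice 1 to 5. In the young mice they ran from 30.0 to 50.8 CPM with a median of 36.3. The groups overlapped, and own-exon reads were on average 32.7% of the row. Pcdhgc3, a gamma C-type gene linked to dendrite branching through Axin1, had 70.2, 68.6, 65.9, 72.6 and 66.3 CPM of own-exon reads in old mice. In young mice the range was 58.8 to 82.5 CPM with a median of 67.7. Pcdhgc5, a gamma C-type gene whose protein associates with GABA receptors, had 124.5, 127.8, 99.4, 114.8 and 137.7 CPM in old mice and 93.8 to 140.9 CPM in young mice, with a median of 128.6. For both gamma genes the old values lay inside the young range. Per kilobase of own exon the 3 genes had 13.7, 20.4 and 22.2 CPM. The age differences of their own-exon counts were 0.13 ± 0.14, -0.01 ± 0.10 and -0.05 ± 0.12 on the log2 scale (edgeR, ± SE), with adjusted p of 0.727, 0.981 and 0.901.

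The other C-type genes were low. Pcdhgc4, a gamma gene required for interneuron survival, had own-exon levels of 3.69 to 11.8 CPM in old and 6.22 to 13.3 CPM in young mice, with overlap. Its log2 age difference was 0.17 ± 0.13 in the deposited counts (edgeR, adjusted p = 0.618) and -0.53 ± 0.28 in own-exon counts (adjusted p = 0.452). Pcdhac1 had 0.793, 1.04, 1.05, 0.211 and 0.914 CPM of own-exon reads in old mice against 1.41 to 2.19 CPM in young mice, with a median of 1.65. Every old mouse was below every young mouse in this small quantity, whose log2 age difference of -1.16 ± 0.34 did not pass the test (edgeR, adjusted p = 0.259). Because it is a difference from the lowest row, it also moves when the lowest row gains reads of its own.

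The summed output of the alpha cluster did not differ by age beyond the spread. The lowest alpha row, an upper limit of the shared reads, was 99.4, 75.5, 68.7, 85.3 and 102.0 CPM in old mice and 71.8 to 103.3 CPM in young mice, with a median of 80.2. The means were 86.2 ± 14.5 (SD, n = 5) and 84.6 ± 13.5 CPM (SD, n = 6), and the groups overlapped over nearly their whole range. The lowest gamma row was 381.8, 355.3, 317.6, 364.6 and 405.5 CPM in old mice and 239.9 to 395.4 CPM in young mice, with a median of 306.9. Its means were 364.9 ± 32.7 and 319.4 ± 61.7 CPM, again with overlap.

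The gamma output is also given by the hippocampal markers of the libraries. In the 6 libraries with a mean of dentate and CA1 markers above 6 on the log2 CPM scale (4 old, 2 young), a line drawn after the values were seen, the lowest gamma row was 355.3 to 405.5 CPM. In the other 5 (1 old, 4 young) it was 239.9 to 317.6 CPM, without overlap. These 5 include the 3 libraries rich in striatal RNA. The sets thus also differ in age and striatal RNA, which the split does not separate. The lowest alpha row was 75.5 to 103.3 CPM in the first 6 and 68.7 to 86.0 CPM in the other 5. In bulk tissue, fewer cells of a type and less RNA per cell cannot be told apart.

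In the test of age across all genes, with the mother's strain as a term, the beta cluster held all members that passed. Of 57 members 3 were higher in old mice and 0 were lower (edgeR, adjusted p under 0.05). Over all 30568 genes tested 0.229% were higher and 0.111% lower. No alpha and no gamma row passed, and the smallest adjusted p among them was 0.576 in gamma and 0.911 in alpha. The median log2 age difference was 0.19 over the beta rows, 0.18 over the gamma rows and 0.00 over the alpha rows, against -0.01 over all genes. At an unadjusted p under 0.05 the beta cluster had 11 members, 10 of them higher in old mice, where 6.88% of all genes were higher by that rule. The member below that p in the other direction was Pcdhb22.

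**Figure D2:**
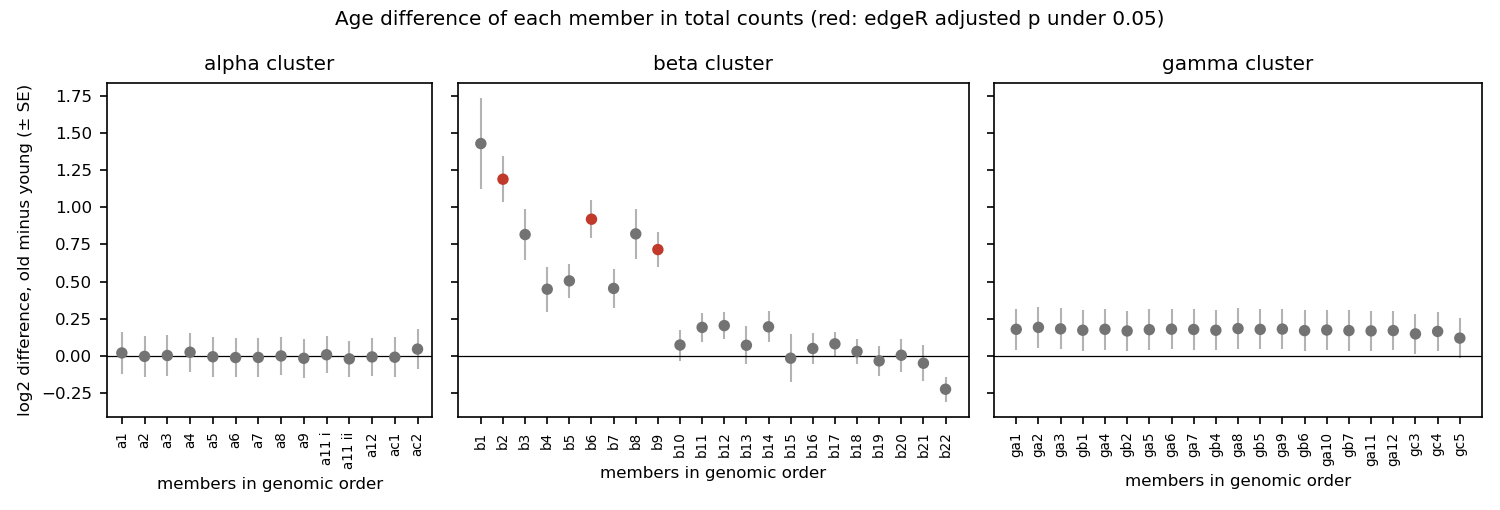
Log2 difference in total counts, old minus young, of every member in genomic order (points, ± SE from edgeR), with red for adjusted p under 0.05. The first 9 beta genes sit between 0.45 and 1.43, and the other beta genes between -0.22 and 0.20.

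Pcdhb2 changed most clearly. It had 14.0, 11.6, 9.92, 12.3 and 12.1 CPM in old mice 1 to 5, and 3.93 to 7.28 CPM with a median of 5.07 in young mice. Every old mouse was above every young mouse. The log2 difference was 1.19 ± 0.15 (edgeR, adjusted p = 0.00952), and without old 4 the adjusted p was 0.0558. The gene lies at bases 37294812 to 37297624.

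Pcdhb6, at bases 37333921 to 37337674, had 13.3, 12.4, 13.9, 10.7 and 12.9 CPM in old mice and 5.54 to 8.52 CPM, with a median of 6.60, in young mice. The groups did not overlap, and the log2 difference was 0.92 ± 0.13 (edgeR, adjusted p = 0.0144). Its adjusted p was 0.0582 without young 3 and 0.131 without the 3 libraries rich in striatal RNA, where Pcdhb2 passed at 0.0389. Pcdhb9, at bases 37400855 to 37403909, had 17.0, 14.7, 13.6, 14.4 and 18.0 CPM in old mice and 8.52 to 11.3 CPM, with a median of 9.21, in young mice. Here too all old mice were above all young mice, and the log2 difference was 0.72 ± 0.12 (edgeR, adjusted p = 0.0338). The call of Pcdhb9 was lost in 12 of 21 alternative settings, for example at adjusted p = 0.108 with the mean of dentate and CA1 markers as a term.

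The other 6 genes among the first 9 of the cluster had positive differences that did not pass the test. Pcdhb1, the lowest member at 0.398 TPM (a level per transcript length), had 0.672, 0.765, 0.882, 0.670 and 0.788 CPM in old mice and 0.106 to 0.479 CPM in young mice. Its groups did not overlap, and its log2 difference was the largest of the cluster, 1.43 ± 0.31 (edgeR, adjusted p = 0.0972). Pcdhb3 had 13.4, 9.81, 9.00, 10.7 and 11.0 CPM in old and 4.11 to 7.75 CPM in young mice, a log2 difference of 0.82 ± 0.17 (adjusted p = 0.0793). Pcdhb8 had 5.83, 6.91, 6.70, 4.51 and 4.84 CPM in old and 2.53 to 4.00 CPM in young mice, also 0.82 ± 0.17 (adjusted p = 0.0754). Both were without overlap between the ages.

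Pcdhb5 had 13.8, 13.2, 11.1, 11.5 and 14.0 CPM in old and 7.17 to 10.2 CPM in young mice, again without overlap, and a log2 difference of 0.51 ± 0.12 (edgeR, adjusted p = 0.122). Pcdhb4 and Pcdhb7 had differences of 0.45 ± 0.15 and 0.45 ± 0.13 with overlapping groups. In all, 7 of 57 members had every old mouse above every young mouse, all of them beta genes, where 1.14% of all genes tested did. None had every old mouse below, where 0.71% of all genes did. DESeq2, which called 0.917% of genes higher in old mice, called 7 members higher: Pcdhb1, Pcdhb2, Pcdhb3, Pcdhb5, Pcdhb6, Pcdhb8 and Pcdhb9. It called 0 members lower, where it called 0.794% of genes lower.

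**Figure D3:**
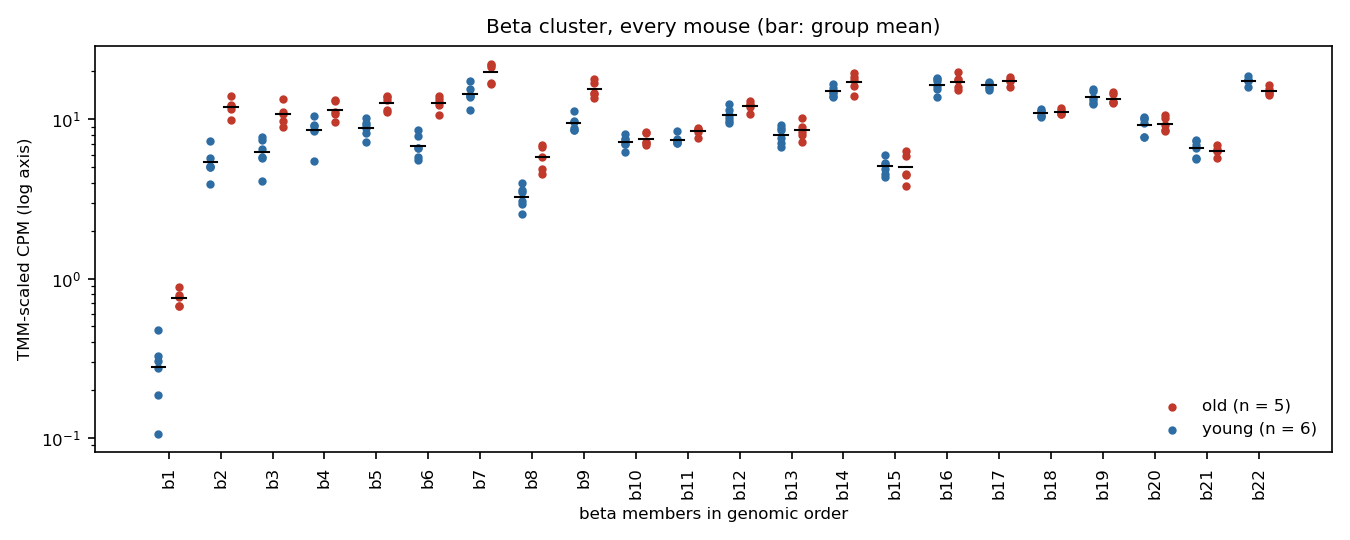
TMM-scaled CPM (log axis) of the 22 beta genes in genomic order, 1 point per mouse, blue for 6 young and red for 5 old mice, with bars at the group means. Red and blue are apart for Pcdhb1 to Pcdhb3, Pcdhb5, Pcdhb6, Pcdhb8 and Pcdhb9, and mixed from Pcdhb10 onward apart from Pcdhb22, whose ranges nearly separate in the other direction.

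The difference followed the order of the genes on the chromosome. Spearman's rho between position and log2 age difference was -0.92 over the 22 beta genes, which share libraries and are given as a description. It was -0.69 over the 21 gamma rows, which repeat shared reads and whose differences span only 0.12 to 0.19. Over the 14 alpha rows it was -0.23. Summed over positions 1 to 9, a split chosen after the values were seen, the beta level was 112.5, 102.3, 92.8, 94.4 and 105.4 CPM in old mice and 54.0 to 73.0 CPM, with a median of 64.3, in young mice. The means were 101.5 ± 8.13 (SD, n = 5) and 63.1 ± 6.67 CPM (SD, n = 6), without overlap. Over positions 10 to 22 the sums were 157.0, 149.7, 149.9, 137.9 and 149.5 CPM in old and 132.5 to 153.1 CPM in young mice, with overlap. The median log2 difference was 0.82 at positions 1 to 9, all 9 above 0, and 0.05 at positions 10 to 22, 9 above and 4 below 0.

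Both sums are also given by the hippocampal content of the libraries. Among the 6 libraries with a dentate and CA1 mean above 6, the sum over positions 1 to 9 ran from 57.6 to 112.5 CPM, and the 2 lowest values, 57.6 and 73.0 CPM, were the 2 young mice. Among the other 5 it ran from 54.0 to 92.8 CPM, and the highest was the only old mouse. The sum over positions 10 to 22 was 132.5 to 157.0 CPM in the first 6 and 138.9 to 153.1 CPM in the other 5. With the marker mean as a term, the log2 difference was 1.01 for Pcdhb2 and 1.00 for Pcdhb6, both at adjusted p = 0.0222. Markers of newborn neurons, microglia, oligodendrocyte precursors (95.6 to 112.5 CPM in old, 123.6 to 165.7 CPM in young mice) and meningeal fibroblasts (18.0 to 26.8 and 27.8 to 94.5 CPM) also separated the ages without overlap. Their part in the beta differences was not tested.

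Pcdhb22, the last beta gene, had the largest difference the other way. It had 16.3, 14.5, 14.2, 14.6 and 15.5 CPM in old mice and 16.0 to 18.6 CPM with a median of 17.6 in young mice. Its ranges overlapped through 1 old mouse, and the log2 difference of -0.22 ± 0.08 did not pass the test (edgeR, adjusted p = 0.346). Per length, Pcdhb7 and Pcdhb9 were the highest beta genes, at 10.0 and 8.33 TPM. In deposited TPM the ages did not overlap for Pcdhb1, Pcdhb2, Pcdhb3 and Pcdhb6, and they did overlap for Pcdhb5, Pcdhb8 and Pcdhb9.

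Differences between neighbouring rows, in which the shared reads cancel, separated the ages without overlap for 3 of 20 gamma pairs and 1 of 13 alpha pairs. The widest separation was that of Pcdhga2 minus Pcdhga1, the first genes of the gamma cluster. It was 1.36, 3.81, 4.27, 3.94 and 1.36 CPM in old mice and -0.983 to 0.237 CPM, with a median of -0.130, in young mice. Every old mouse was above every young mouse, and the means were 2.95 ± 1.46 (SD, n = 5) and -0.212 ± 0.431 CPM (SD, n = 6). Pcdhga5 minus Pcdhgb2 was -0.90 to 1.32 CPM in old and -2.51 to -1.29 CPM in young mice, and Pcdhga4 minus Pcdhgb1 was -2.54 to -1.02 and -3.40 to -2.55 CPM. In the alpha cluster Pcdha9 minus Pcdha8 was lower in every old mouse, at -0.33 to 0.04 CPM against 0.07 to 2.44 CPM. These pairs were chosen after their values were seen and have no test of their own. Neighbouring pairs reuse rows, and no share over pairs of other genes was computed. Among single genes 1.14% had every old mouse above every young mouse and 0.71% had every old mouse below. Own-exon counts of Pcdhga2 passed the age test (edgeR, adjusted p = 0.0359). They did not pass in 7 of 11 fits with 1 mouse left out (adjusted p from 0.00997 to 0.114), nor without the 3 libraries rich in striatal RNA (adjusted p = 0.307). This row was itself the lowest in 4 young libraries, where its own-exon count is 0 by definition, which leaves no fold to give. In all 5 old libraries and the other young ones Pcdhga1 was the lowest row. The adjusted p depends on this change of baseline, and more reads of Pcdhga2 and fewer of Pcdhga1 cannot be told apart. Other genes between the first alpha and the last gamma gene were tested too, 27 in all, with a median log2 difference of 0.09. At an unadjusted p under 0.05, 6 were higher and 1 lower, where 6.88% and 5.59% of all genes were (edgeR). Some of them hold exon bases of members and so repeat their reads, such as Pcdhgb8 with all 2116 shared gamma bases. Only the long noncoding RNA 3222401L13Rik, which ends just before Pcdhga1, passed the age test. 3222401L13Rik had 1.87 to 2.31 CPM in old and 0.923 to 1.38 CPM in young mice, a log2 difference of 0.87 ± 0.15 (edgeR, adjusted p = 0.0364). This call was lost in 15 of 21 alternative settings, while the difference stayed between 0.74 and 0.99.

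The remaining alpha and gamma rows that stood out in level did so by little. Pcdhac2 and Pcdha5 were the highest alpha rows, at 44.3 and 35.6 TPM, and the second Pcdha11 row was the lowest, at 24.7 TPM. Pcdhga11 and Pcdhgb6 were the highest gamma rows, at 156.1 and 153.5 TPM, and Pcdhgb5 the lowest, at 107.2 TPM. TPM divides the shared reads by each row's own total length, so these levels order the rows partly by length. The log2 age differences ran from -0.02 for the second Pcdha11 row to 0.05 for Pcdhac2 in alpha, and from 0.12 for Pcdhgc5 to 0.19 for Pcdhga2 in gamma.

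The mother's strain was compared next. Of 57 members 0 differed between mice with a CAST and a BL6 mother (edgeR), where 0.206% of all genes did (0.183% higher with a CAST and 0.0229% with a BL6 mother). The members' log2 differences ran from -0.18 to 0.17, 0 members had an unadjusted p under 0.05, and DESeq2 called 0. The age difference was also compared between the crosses. The interaction passed for 0 of 57 members and for 0% of 31355 genes. At an unadjusted p under 0.05 there was 1 member, Pcdhb7 (log2 -0.63 ± 0.19, edgeR, adjusted p = 0.418). The share of all genes at that unadjusted p was not computed for the mother or for the interaction, so Pcdhb7 is not read as a result.

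Reads that could be assigned to a chromosome were then compared between the BL6 and the CAST copy in the same mice. Of 57 members 13 were higher from BL6, where 40.9% of 24707 autosomal genes were, and 24 were higher from CAST, where 24.6% were (edgeR, adjusted p under 0.05), 65.5% of genes in all. With own-exon counts for the alpha and gamma rows 21 were higher from BL6 and 26 from CAST. There the lowest row was subtracted in each copy separately, so a row that is lowest in 1 copy is drawn toward the other. By cluster in the deposited counts, BL6 was higher for 2 alpha, 10 beta and 1 gamma member, and CAST for 7, 9 and 8. The pooled BL6 share had a median of 49.0% over alpha, 51.8% over beta and 49.6% over gamma rows. The median over all autosomal genes was 51.3%, with quartiles of 47.5% and 55.8%. In alpha and gamma rows the share is drawn toward that of the shared exons, and calls of rows of 1 cluster repeat the same reads.

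In the beta cluster the share changed along the chromosome. Pcdhb1 had 65.9% BL6 over pooled reads, but only 13 to 131 reads per mouse. Pcdhb3 to Pcdhb8 formed a run in which the CAST copy was higher in all 11 mice. Within that run Pcdhb4 had 31.5% BL6, Pcdhb5 30.0% and Pcdhb6 29.5%, the lowest of the cluster.

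The values by mouse show the spread of these shares. For Pcdhb6 the BL6 share was 28.9%, 33.4%, 34.1%, 28.8% and 29.6% in old mice and 21.8% to 30.2% in young mice, a log2 BL6-to-CAST difference of -1.29 ± 0.05 (edgeR, adjusted p = 4.44e-15). For Pcdhb4 it was 31.7% to 36.9% in old and 22.5% to 32.0% in young mice (log2 -1.14 ± 0.05, edgeR, adjusted p = 3.90e-14). Further along, Pcdhb18 was again higher from CAST in 11 of 11 mice, at 41.3% BL6. Pcdhb14, Pcdhb16 and Pcdhb19 were higher from BL6 in 11 of 11 mice, with pooled shares of 57.2%, 56.4% and 56.9%. Their adjusted p were 1.87e-07, 7.62e-08 and 7.67e-10 (edgeR). The last genes, Pcdhb21 and Pcdhb22, were also above 50% in 11 of 11 mice, at 56.1% and 54.1%. In all, 5 beta genes were above and 7 below 50% in every mouse. The share of all autosomal genes on the same side of 50% in every mouse was not computed.

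**Figure D4:**
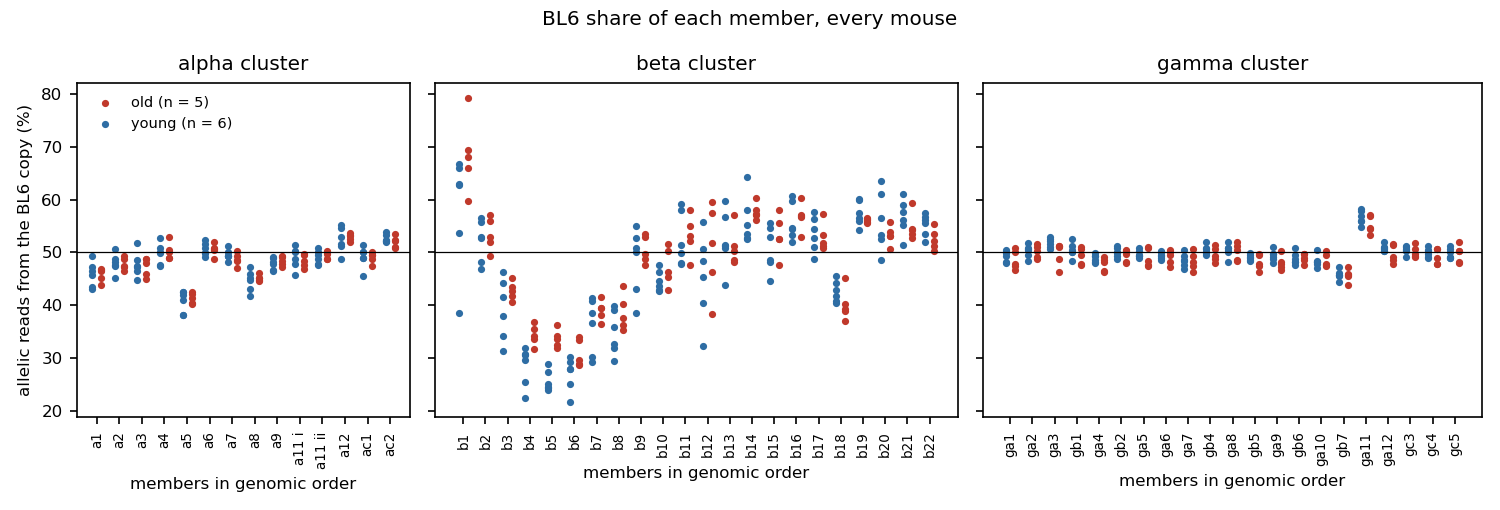
BL6 share of allelic reads (percent) of every member in genomic order, 1 point per mouse, blue for young and red for old, with a line at 50%. Alpha and gamma rows lie between 41.1% (Pcdha5) and 56.1% (Pcdhga11) in pooled reads, and the beta genes Pcdhb4 to Pcdhb6 dip to about 30%.

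In 11 of 11 mice 4 alpha and 3 gamma rows were below 50% BL6, and 1 row of each cluster was above. Here too no such share over all genes was computed, and rows of a cluster repeat shared reads. The rows with shares furthest from 50% are named here. Pcdha5 had a BL6 share of 41.1%, the lowest alpha value, and was below 50% in 11 of 11 mice, 40.3% to 42.6% in old and 38.2% to 42.6% in young mice (log2 -0.51 ± 0.03, edgeR, adjusted p = 4.33e-13). Pcdha8 and Pcdha1 were also below 50% in 11 of 11 mice, at 45.0% and 45.9% (log2 -0.29 ± 0.03 and -0.24 ± 0.03, edgeR, adjusted p = 9.56e-09 and 3.96e-07). Pcdha12 was the highest alpha row at 52.6%. Pcdhga11 had 56.1% BL6 and Pcdhgb7, its neighbour, 45.8%, the highest and the lowest gamma share. Pcdhga11 was above 50% and Pcdhgb7 below 50% in 11 of 11 mice.

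Own-exon reads showed larger differences between the copies. Among the 7 rows with at least 1000 own-exon allelic reads in every mouse, Pcdhga11 had 71.7% BL6 (65.3% to 76.4% by mouse) and Pcdhgb7 33.1% (28.1% to 37.5%). Pcdhga9 had 44.6%, Pcdhga12 51.6%, Pcdhac2 54.5%, Pcdhgc3 51.9% and Pcdhgc5 49.9%. The C-type genes with enough reads thus lay between 49.9% and 54.5%, and the neighbours Pcdhgb7 and Pcdhga11 lay on opposite sides. Pcdhac2 passed the test toward BL6 in its deposited counts too (log2 0.13 ± 0.02, edgeR, adjusted p = 3.15e-06).

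The BL6 share of 1 member depended on age. Pcdhb5, at bases 37320381 to 37323915, had a BL6 share of 34.1%, 36.3%, 33.6%, 32.5% and 31.9% in old mice and 24.0% to 29.0% in young mice, with a median of 24.8%. Every old mouse was above every young mouse, so the CAST copy was the higher one at both ages, by less in old mice. The log2 term was 0.54 ± 0.08 (edgeR, adjusted p = 0.00203), and 0.166% of all genes passed this test. In RPM, scaled to the allelic reads of each mouse, the BL6 copy of Pcdhb5 was at 10.9 ± 1.04 in old and 5.98 ± 0.81 in young mice, 1.82-fold, and the CAST copy at 21.4 ± 1.39 and 17.3 ± 2.68, 1.24-fold.

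Neighbouring beta genes had terms of the same sign that did not pass. At positions 1 to 9 the term was above 0 for all 9 genes, with a median of 0.23 on the log2 scale, and at positions 10 to 22 for 6 of 13, with a median of -0.02. Spearman's rho with position was -0.81 over the 22 genes, a description over genes that share libraries. Both copies of Pcdhb2 were higher in old mice to a like degree: 16.1 against 7.23 RPM from BL6 and 14.0 against 6.64 from CAST, 2.22-fold and 2.11-fold. Pcdhb6 had 2.23-fold from BL6 and 1.82-fold from CAST, and Pcdhb9 1.64-fold and 1.51-fold. Their terms were 0.07 ± 0.10, 0.27 ± 0.10 and 0.08 ± 0.12 (edgeR, adjusted p = 0.934, 0.472 and 0.920).

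Parent of origin was tested with the strain of each copy held apart. Of 57 members 1 passed, Pcdhb12, where 0.874% of all genes did, and Pcdhb12 was higher from the maternal copy. Its BL6 share was 48.5% to 59.6% in the 6 mice with a BL6 mother and 32.4% to 46.3% in the 5 mice with a CAST mother, without overlap. The maternal copy held 51.9% to 61.7% of reads in old and 48.5% to 67.6% in young mice, above 50% in all mice except young 6. The log2 maternal term was 0.39 ± 0.06 (edgeR, adjusted p = 4.49e-04). The antisense gene Gm37446 overlaps Pcdhb12, and its maternal term passed as well, at 0.33 ± 0.06 (adjusted p = 0.00162). The reads of these genes cannot be told apart. The neighbours Pcdhb11 and Pcdhb13 had terms of 0.13 ± 0.06 and -0.14 ± 0.05, which did not pass (edgeR, adjusted p = 0.974 and 0.692). Without the 3 libraries rich in striatal RNA Pcdhb13 passed toward the paternal copy, at -0.26 (adjusted p = 0.0127). The test of the maternal term by age passed for 0 of 57 members, and 0.0769% of all genes passed (edgeR). At an unadjusted p under 0.05 there were 0 members, and the share of all genes at that p was not computed.

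**Figure D5:**
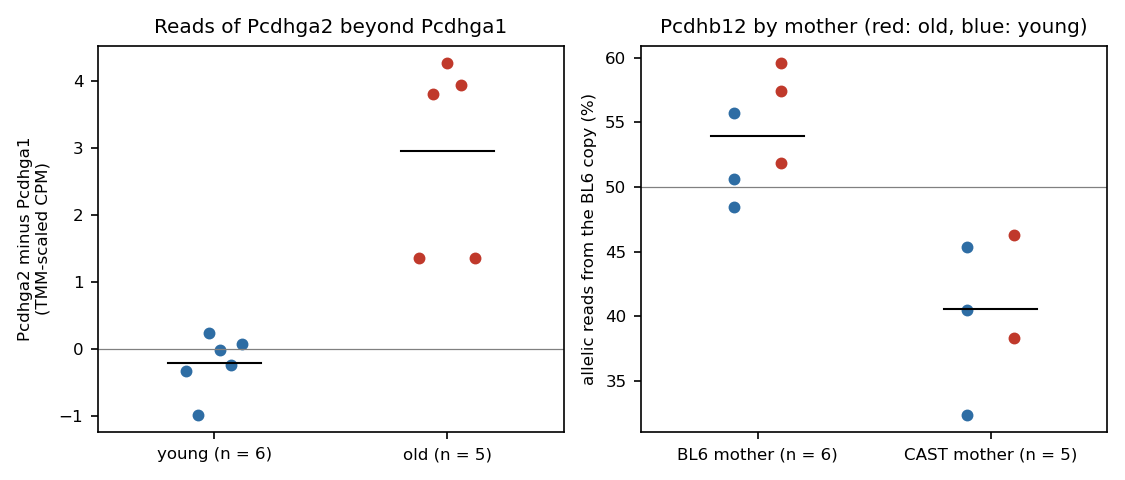
Left, Pcdhga2 minus Pcdhga1 in TMM-scaled CPM per mouse, with group means as bars: the 5 old mice sit between 1.36 and 4.27 and the 6 young mice between -0.98 and 0.24. Right, BL6 share of Pcdhb12 reads per mouse by the strain of the mother, with group means as bars and red for old mice: all values with a CAST mother are at or below 46.3% and all with a BL6 mother at or above 48.5%.

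Genes that act with the clusters were counted for comparison. Of 12 non-clustered protocadherins, which lie outside the clusters and do not use promoter choice, 0 passed the age test (edgeR), with 1 higher and 3 lower at an unadjusted p under 0.05 and a median log2 difference of -0.17. Of all genes 5.59% were lower at that p. Pcdh15, a hair-cell tip-link protein also found in oligodendrocyte precursors, had 13.8 to 27.2 CPM in old and 21.1 to 45.5 CPM in young mice, with overlap. Its log2 difference of -0.88 ± 0.25 did not pass in edgeR (adjusted p = 0.240) and did in DESeq2 (adjusted p = 0.0305). The part of the oligodendrocyte precursor markers, lower in every old mouse, in this difference was not tested. The next in order were Pcdh11x (-0.98 ± 0.32, adjusted p = 0.307) and Pcdh1 (0.49 ± 0.20, adjusted p = 0.359).

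Of 22 genes that act on promoter choice and chromatin of the clusters, 0 passed (edgeR and DESeq2), with a median log2 difference of -0.10. At an unadjusted p under 0.05, 0 were higher and 4 lower, where 6.88% and 5.59% of all genes were (edgeR). The smallest p-values were those of Hells, a chromatin remodeller needed for DNA methylation, at -0.46 ± 0.17, of Dnmt3a, a de novo DNA methyltransferase, at -0.36 ± 0.14, and of Smchd1, a chromatin protein that represses the clusters, at -0.23 ± 0.10. Their adjusted p were 0.351, 0.355 and 0.373. Of 19 partners and signalling genes of the proteins 0 passed (edgeR and DESeq2), with 0 at an unadjusted p under 0.05 and a median of 0.08. The smallest p-values there were those of the kinase Ptk2b (0.44 ± 0.22), the actin-linked protein Marcks (-0.28 ± 0.14) and Cyfip1 of the WAVE complex (0.21 ± 0.14). Their adjusted p were 0.434, 0.434 and 0.548.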

How the data were processed

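RNA was measured in hippocampus of 11 mice with 1 library each. Per the submitters' processing notes, the tools were bcl2fastq 2.20, Trim Galore 0.6.6, HISAT2 2.1.0, SAMtools 1.10 and featureCounts of Subread 2.0.0, with the GRCm38 build. The annotation release, how strands were counted and how reads were given to an allele are not given in the sources used here. Deposited by the authors were whole-number counts per gene, counts per gene and allele, and TPM per gene. The lengths implied by the deposited TPM were proportional to the exon lengths of GENCODE M21 over all 57 members. The allele column named i4fb per the file headers was taken as BL6.

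Groups came from the labels. The total counts of all 11 mice were tested with the quasi-likelihood method of edgeR 4.0.16 under R 4.3.3, after filterByExpr and TMM scaling, and the model held mother and age. The allelic model, for autosomal genes that averaged 10 or more such reads per mouse, held mouse, BL6 allele, maternal allele and the interaction of either allele term with age. All 57 members passed both filters. Benjamini-Hochberg adjustment ran over all genes tested, with calls under 0.05. SE is from the edgeR fit. Own-exon counts are each alpha or gamma row less the lowest row of its cluster in the library, an approach chosen after the rows were seen. In allelic counts the lowest row was taken for BL6 and for CAST separately, so different rows can serve for the copies. The tests were tested on simulated data. Between libraries of the same age the smallest chi-square per gene was 45.6, where 1 is sampling noise, so all were kept. DESeq2 1.42.0 was an alternative, as were RLE scaling, other filters, marker terms and leaving out libraries. Figures were drawn with matplotlib 3.10.9.

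The members, gene lists and markers were chosen with earlier results of these data known. Members are named if called for age, C-type, highest or lowest in TPM, in age difference or in BL6 share of their cluster, or called for an allele term by smallest p. From each pathway list come its called genes or, failing those, the 3 lowest p. Positions 1 to 9, the other first beta genes, Pcdhb11, Pcdhb13, Pcdhb18, Pcdhb21, Pcdha1 and Pcdha8 were chosen after their values were seen. So were the pairs of neighbouring rows and the rows with at least 1000 own-exon reads. Sequences of the members are not printed here.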

Additional observations from a re-analysis of the deposited data

Results flagged for a closer look

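The own-exon reads of the gamma cluster, summed over its rows, were 291.3 CPM in old 1 and 331.2 to 346.4 CPM in the other 4 old mice, a gap large enough to mark old 1 as outlying. Of 120 groups of mice checked in this way 1 was marked, where chance marks about 1 in 20.

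The BL6 share of Pcdhb5 differed between the ages (edgeR, log2 term 0.54, adjusted p = 0.00203), with a mean share of 33.7% in old and 25.7% in young mice. The term passed the test in 15 of 15 alternative settings, between 0.49 and 0.60.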

How the results depend on the processing

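The count of members higher in old mice, 3 in the fit reported, was 7 with DESeq2, 5 with no term for the mother and 1 without the 3 libraries rich in striatal RNA. It was 0 in mice with a BL6 mother only and 0 in mice with a CAST mother only, which hold fewer mice. Leaving out each mouse in turn gave 1 to 4, with 1 without old replicate 4 and 1 without young replicate 3. Pcdhb2 passed in 18 of 21 alternative settings, Pcdhb6 in 17 and Pcdhb9 in 9, with log2 differences of 0.92 to 1.41, 0.72 to 1.08 and 0.53 to 0.88.

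The count of members higher from BL6, 13 in the fit reported, was 21 with own-exon counts, and the count for the maternal allele, 1, was 2 with own-exon counts and 2 without the 3 libraries rich in striatal RNA, with Pcdhga6 and Pcdhb13 as the added members. The maternal term of Pcdhb12 passed in 15 of 15 settings, and its BL6 term was lost in 7 of 17. Own-exon counts and the dentate and CA1 marker term were chosen after seeing the data, and the cause of these changes was not tested. No called result changed its direction. In own-exon counts a row at or near the lowest row has few reads, which limits the alpha and gamma rows other than the C-type genes named.

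No paired analysis was possible because replicate numbers follow accession order and pair no mice.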
